A study of Mus musculus with 60 samples.

Results

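The replication licensing genes described here are the 6 subunits of the MCM helicase (*Mcm2*, *Mcm3*, *Mcm4*, *Mcm5*, *Mcm6* and *Mcm7*), the loading factors *Cdc6* and *Cdt1*, the helicase co-activator *Cdc45* and the licensing inhibitor *Gmnn*. They were chosen by name, and all 10 were found among the 47729 mouse genes of the count table. PyMT-Bo1, a mouse mammary tumor line of C57BL6 background that carried Thy1.1, H2B-mApple and Luc2 transgenes, was stained with the membrane dye DiD and given by intracardiac injection to wild-type C57BL6 mice, per the study's methods females 8 to 10 weeks old. After 11 days, Thy1.1-enriched, CD45-negative tumor cells from the pooled femurs and tibias of 5 mice were sorted 1 per well, and full-length cDNA of each cell was sequenced. The deposited cells are 32 with high DiD intensity (DiD+, cells that kept the dye and that the study calls dormant) and 28 with low DiD intensity (DiD-, called proliferative). The genotype, transgenes, dye, host and harvest were the same for both groups, and the groups were separated by the dye that was left at sorting.

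Licensing is the step that permits each replication origin to fire only once per cell cycle. In late mitosis and G1, the origin recognition complex, Cdc6 and Cdt1 load the Mcm2-7 ring onto DNA as an inactive helicase, and in S phase the kinases Cdc7 and Cdk2 allow Cdc45 and the GINS complex to join the ring and start it. Geminin, the product of *Gmnn*, binds Cdt1 from S phase to mitosis and blocks a second round of loading. Cells that leave the cycle are known to lose Cdc6 and the Mcm proteins, whose genes are E2F targets. The data are mRNA counts, so a cell is called here licensing-poor or licensing-complete by its mRNA alone, and helicase loaded on DNA was not measured.

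No label ties a cell to its mouse. Each group of cells is therefore 1 sample, no p-value or standard error was made, and no difference below has a replicate check in these data. A gene's level in a group is its total over the group's cells, scaled to counts per 1000000 counts on mouse genes (CPM), with an exact Poisson interval at 95%. Shares of cells have exact binomial (Clopper-Pearson) intervals at 95%. The reads carry no molecular identifiers, so the Poisson intervals cover the counting of amplified reads only. The binomial intervals treat the cells of a group as independent draws, and neither kind covers differences between mice. Presence of a gene in a cell means at least 10 counts there. Cells held 2276789 to 7794219 counts in the DiD+ group (median 4653710) and 2624405 to 6199108 in the DiD- group (median 4440160), with medians of 8283 and 8424.5 genes detected. A sum of 3 counts, the limit that a count of 0 allows, was 0.0205 CPM over the DiD+ group and 0.0251 CPM over the DiD- group, far under every licensing gene. Tumor cell markers (*Krt8*, *Krt18*, *Epcam* and the transgenes) summed to at least 427 CPM in every DiD+ cell and 497 CPM in every DiD- cell.

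Some wells also held RNA of genes that mark host blood cells. The study detected no *Ptprc* (CD45) in its single cells and took them to be free of host cells. How the marker RNA came into these wells was not tested. At least 7 of 13 macrophage or monocyte markers were present in 6 DiD+ wells (cells 19, 21, 24, 30, 37 and 88) and 1 DiD- well (cell 84), and at least 4 of 7 erythroid markers in 3 wells of each group (cells 19, 30 and 37, and cells 44, 84 and 86). The summed macrophage markers ran from 0 to 19854 CPM (median 44.5) in the DiD+ group and from 0 to 1768 CPM (median 24.5) in the DiD- group, and 2 cells of each group had none. Erythroid markers were at 0 in 24 of 32 and 19 of 28 cells. No other list (neutrophil, B or plasma, T or NK, endothelial) had a median of more than 0.5 present markers per cell. Of 7 mesenchymal stromal genes, a median of 2 was present in DiD+ and 3 in DiD- cells. The ratios of the licensing genes and the main classes of cells are also given without the wells that passed the macrophage or erythroid limit (host wells). For the other results the part of these wells was not tested.

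Promoter sequence, which the count data did not enter, showed which short words these genes hold. The RefSeq promoter windows used here (GRCm38.p6, 250 bases before to 50 bases after each gene's start) cover 8 of the 10 genes, all but *Mcm4* and *Gmnn*. E2F proteins, which drive genes needed for S phase, bind words such as TTTGGCGC, TTTCCCGC, TTTCGCGC and TTTGCCGC. At least 1 of these 4 words, on either strand, was found in 6 of the 8 genes (*Mcm3*, *Mcm5*, *Mcm6*, *Mcm7*, *Cdc6* and *Cdt1*) and in 2.61% of all 27025 genes with a window. The CCAAT box was found in 6 of 8 genes (all but *Cdc6* and *Cdt1*) and in 41.1% of all genes. The word TTTGAA, the core of the cell cycle homology region of G2/M promoters, was found in *Mcm2* and *Cdc45* and in 20.2% of all genes. A word is a match of letters and not a measured binding site. The windows of 30 bases below are printed to show these words at the genes that the results turn on, on the gene's own strand, with the words in capitals. In *Mcm5* and *Mcm6* the capitals span 2 words, TTTCGCGC and TTTGGCGC, which overlap on opposite strands, and in *Cdc6* the word is read on the other strand.
Mcm3, chr1:20820263-20820292, minus strand, word 38 bases after the start: cgggaaaacttgggaagtTTTGGCGCcaag
Mcm5, chr8:75109345-75109374, plus strand, first word 153 bases before the start: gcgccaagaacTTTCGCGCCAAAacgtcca
Mcm6, chr1:128359797-128359826, minus strand, first word 110 bases before the start: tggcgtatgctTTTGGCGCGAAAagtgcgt
Mcm7, chr5:138171849-138171878, minus strand, word 16 bases after the start: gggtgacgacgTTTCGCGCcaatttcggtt
Cdc6, chr11:98908002-98908031, plus strand, word 138 bases before the start: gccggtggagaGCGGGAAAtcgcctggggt
Cdt1, chr8:122568035-122568064, plus strand, word 32 bases after the start: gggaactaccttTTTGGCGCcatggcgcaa

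All 10 licensing genes had a lower summed level in DiD+ than in DiD- cells. The ratio of DiD- over DiD+ CPM ran from 1.34-fold (*Gmnn*) to 3.02-fold (*Mcm3*). On the log2 scale, with 1 CPM added to each level, the median ratio of DiD+ over DiD- was -0.78 over the 10 genes, against -0.00 over the 8814 genes that reached 10 CPM in either group. The 6 *Mcm* genes ranged from -1.58 to -0.67, the 2 loading factors were at -0.70 (*Cdc6*) and -0.72 (*Cdt1*), and *Cdc45* and *Gmnn* had the smallest differences, -0.50 and -0.42. Of the 10 genes, 8 were at least 1.5-fold lower in DiD+, all but *Cdc45* and *Gmnn*, where 10.6% of the 8814 genes were (50.5% were lower by any amount). By single genes, *Mcm3* had the 54th lowest ratio of the 8814 and *Gmnn* the 1562nd. A few cells weighed on the size of these ratios. Without DiD+ cell 82 the median was -1.08, without DiD- cell 33 it was -0.66, and the number of genes at least 1.5-fold lower was 5 without cell 33 and 10 without DiD+ cell 25. Every gene was lower in DiD+ whichever of the 60 cells was left out. Without the macrophage wells the median was -0.75 and 7 genes were at least 1.5-fold lower, and without the erythroid wells the median was -0.74.

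**Figure D1:**
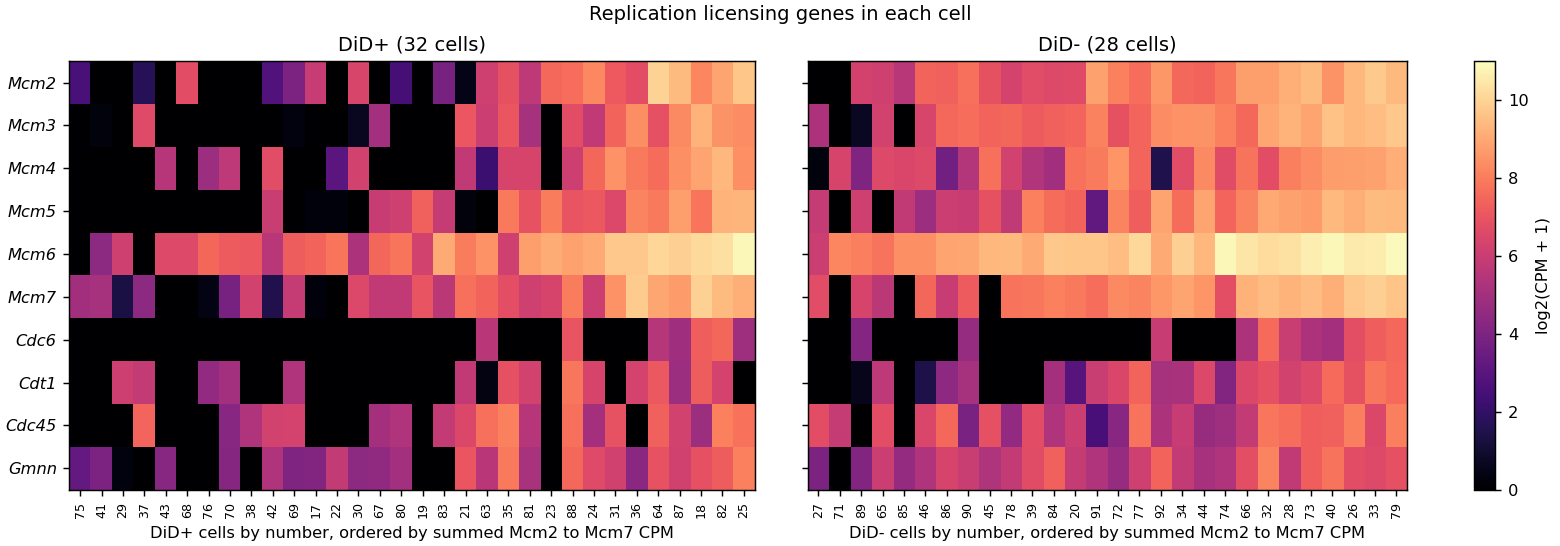
Level of each licensing gene (rows) in each cell (columns, numbered as in the labels and ordered within a group by the summed level of *Mcm2* to *Mcm7*), as log2(CPM + 1) in color. The DiD+ panel (32 cells) is dark at the left, where most genes are at 0, and bright in the last 6 to 11 cells, and most of the DiD- panel (28 cells) is bright apart from *Cdc6*.

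*Mcm3*, a subunit of the ring that helps to hold it to the loading factors, had the largest difference of the 10 genes. It lies at chr1:20802968-20820312 on the minus strand (GRCm38, 17 exons in the longest coding transcript). Its summed level was 98.9 CPM (97.3 to 101) in DiD+ and 298 CPM (295 to 302) in DiD- cells. The lowest DiD+ cell was at 0, the median cell at 0.424 and the highest at 615 CPM (cell 18), against 0, 185 and 851 CPM (cell 79) in DiD- cells. The ranges overlapped, but the gene was present in 15 of 32 DiD+ cells (46.9%, 29.1 to 65.3) and in 25 of 28 DiD- cells (89.3%, 71.8 to 97.7). Where it was present, the median was 130 CPM in DiD+ against 202 CPM in DiD- cells, so that its absence in 17 DiD+ cells and a lower level in the others both entered the sum. Without cell 18 the log2 ratio was -1.87 and without cell 79 it was -1.47. The study used *Mcm3* as a proliferation gene in its own qRT-PCR of sorted cells. It reported *Mcm3* to be higher in DiD low or negative cells from bone. The primer pair is shown to place that assay on the gene. Both primers fall in the coding sequence of the 3031-base transcript, the forward primer at bases 117 to 137 in exon 1 (chr1:20820176-20820196) and the reverse primer at bases 189 to 210 in exon 2 (chr1:20817878-20817899), so the product spans the first intron.
Mcm3 forward primer: gtagtgctggatgatgtggag
Mcm3 reverse primer: ccttgttctggtaaatgccttg

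*Mcm5* and *Mcm2*, which form the gate through which the ring opens around DNA, differed by similar amounts. *Mcm5* was at 134 CPM (132 to 136) in DiD+ and 265 CPM (262 to 268) in DiD- cells. Per cell it ran from 0 over a median of 59.5 to 623 CPM (cell 25) in DiD+ and from 0 over 185 to 695 CPM (cell 33) in DiD-. As for *Mcm3*, the groups stood further apart in the number of positive cells than in the level of these cells. *Mcm5* was present in 17 of 32 (53.1%) against 26 of 28 cells (92.9%), and its median where present was 159 against 197 CPM. *Mcm2* was at 157 CPM (155 to 159) in DiD+ and 292 CPM (289 to 296) in DiD- cells. Single cells ran from 0 over a median of 32.6 to 1019 CPM (cell 64) in DiD+ and from 0 over 196 to 869 CPM (cell 33) in DiD-, so its highest cell of all was DiD+. It was present in 22 of 32 against 26 of 28 cells, and where it was present its median was 108 CPM in DiD+ against 208 CPM in DiD- cells.

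*Mcm6* and *Mcm7* showed another pattern, with most cells positive in both groups and a lower level per positive cell in DiD+. *Mcm6*, the most abundant of the 10 genes in both groups by CPM, was at 425 CPM (422 to 429) in DiD+ and 904 CPM (898 to 909) in DiD- cells. It was present in 30 of 32 DiD+ cells, all but cells 37 and 75, and in all 28 DiD- cells. Its cells ran from 0 over a median of 205 to 1841 CPM (cell 25) in DiD+ and from 65.6 over 778 to 1875 CPM (cell 79) in DiD-, and 5 DiD+ cells lay below the lowest DiD- cell. *Mcm7* was at 201 CPM (199 to 203) in DiD+ and 360 CPM (356 to 363) in DiD- cells, and was present in 26 of 32 against 25 of 28 cells. Its cells ran from 0 over a median of 69.1 to 991 CPM (cell 18) in DiD+ and from 0 over 256 to 963 CPM (cell 33) in DiD-, so its highest cells were alike and its middle cells were not. Where present, the median was 231 against 778 CPM for *Mcm6* and 87.7 against 291 CPM for *Mcm7*, ratios of 3.37-fold and 3.32-fold, compared with 1.24-fold for *Mcm5*. *Mcm7* shares exon bases with *Cops6* (64 bases) and *Ap4m1* (321 bases) on the other strand, and the cDNA kit does not keep strand, so reads there cannot be told apart.

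*Mcm4*, a catalytic subunit, had the smallest difference of the 6 helicase genes when all cells were counted. It was at 118 CPM (116 to 120) in DiD+ and 188 CPM (186 to 191) in DiD- cells. Its cells ran from 0 over a median of 36.6 to 652 CPM (cell 82) in DiD+ and from 0.199 over 106 to 558 CPM (cell 79) in DiD-, and 1 DiD+ cell was above the highest DiD- cell. This cell decided much of the value, since without cell 82 the log2 ratio of *Mcm4* was -1.09 in place of -0.67. *Mcm4* was present in 19 of 32 (59.4%) against 26 of 28 cells (92.9%).

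*Cdc6* and *Cdt1*, the factors that bring the ring to the origin, were among the least often detected of the 10 genes in both groups (in DiD+, *Cdt1* and *Mcm3* were tied). *Cdc6*, an ATPase that quiescent cells degrade, was at 22.6 CPM (21.8 to 23.3) in DiD+ and 37.2 CPM (36.1 to 38.3) in DiD- cells. The median cell of each group was at 0 for *Cdc6*, and it was present in only 7 of 32 DiD+ (21.9%, 9.28 to 39.97) and 11 of 28 DiD- cells (39.3%, 21.5 to 59.4). The highest cells were alike, at 179 CPM (DiD+ cell 82) and 193 CPM (DiD- cell 32), and 6 cells held 96.5% of its DiD+ counts and 86.6% of its DiD- counts. The ratio therefore hung on single cells, with a log2 ratio of -1.37 without cell 82 and -0.40 without cell 32, around -0.70 for all cells. *Cdt1*, which delivers the ring, was at 39.7 CPM (38.7 to 40.7) in DiD+ and 65.9 CPM (64.5 to 67.4) in DiD- cells. It was present in 15 of 32 against 20 of 28 cells, the medians were 0.142 and 34.3 CPM, and the highest cell was at 233 CPM in both groups (cells 88 and 33). Where it was present, *Cdt1* had nearly the same median in both groups, 74.7 and 81.6 CPM. The highest *Cdt1* cell of the DiD+ group is a macrophage-marked well, and without such wells the log2 ratio was -0.99 in place of -0.72.

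*Cdc45* and *Gmnn*, which act after loading, had the smallest differences by CPM. Scaled by spike-ins, *Cdc45* (-1.01) was further from 0 than *Mcm2* (-0.81), *Mcm4* (-0.78), *Cdc6* (-0.92) and *Cdt1* (-0.96), with the median of all genes at -0.39. All 10 genes were then at least 1.5-fold lower, but the share of all genes past this limit was not counted at this scaling. Relative to the median of all genes, the median of the 10 was -0.59 scaled by spike-ins and -0.77 by CPM. By CPM but without cell 32, *Cdc6* (-0.40) was closer to 0 than *Cdc45* (-0.42). *Cdc45* was at 74.2 CPM (72.8 to 75.6) in DiD+ and 105 CPM (103 to 107) in DiD- cells. Its cells ran from 0 over a median of 36.1 to 275 CPM (cell 82) in DiD+ and from 0 over 75.1 to 265 CPM (cell 79) in DiD-. It was present in 20 of 32 (62.5%) against 26 of 28 cells (92.9%), and where present its median was 77.9 against 88.4 CPM, so its difference lay mostly in the number of positive cells. *Cdc45* shares 209 exon bases with *Ufd1* on the other strand. *Gmnn* was at 61.5 CPM (60.2 to 62.8) in DiD+ and 82.5 CPM (80.8 to 84.1) in DiD- cells and was present in 24 of 32 against 27 of 28 cells. Its cells ran from 0 over a median of 20.98 to 276 CPM (cell 25) in DiD+ and from 0 over 61.7 to 289 CPM (cell 32) in DiD-. The ranges of both genes overlapped almost fully. The log2 ratio of *Gmnn* was -0.63 without DiD+ cell 25, -0.24 without DiD- cell 32 and -0.26 without the erythroid wells, against -0.42 for all cells.

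**Figure D2:**
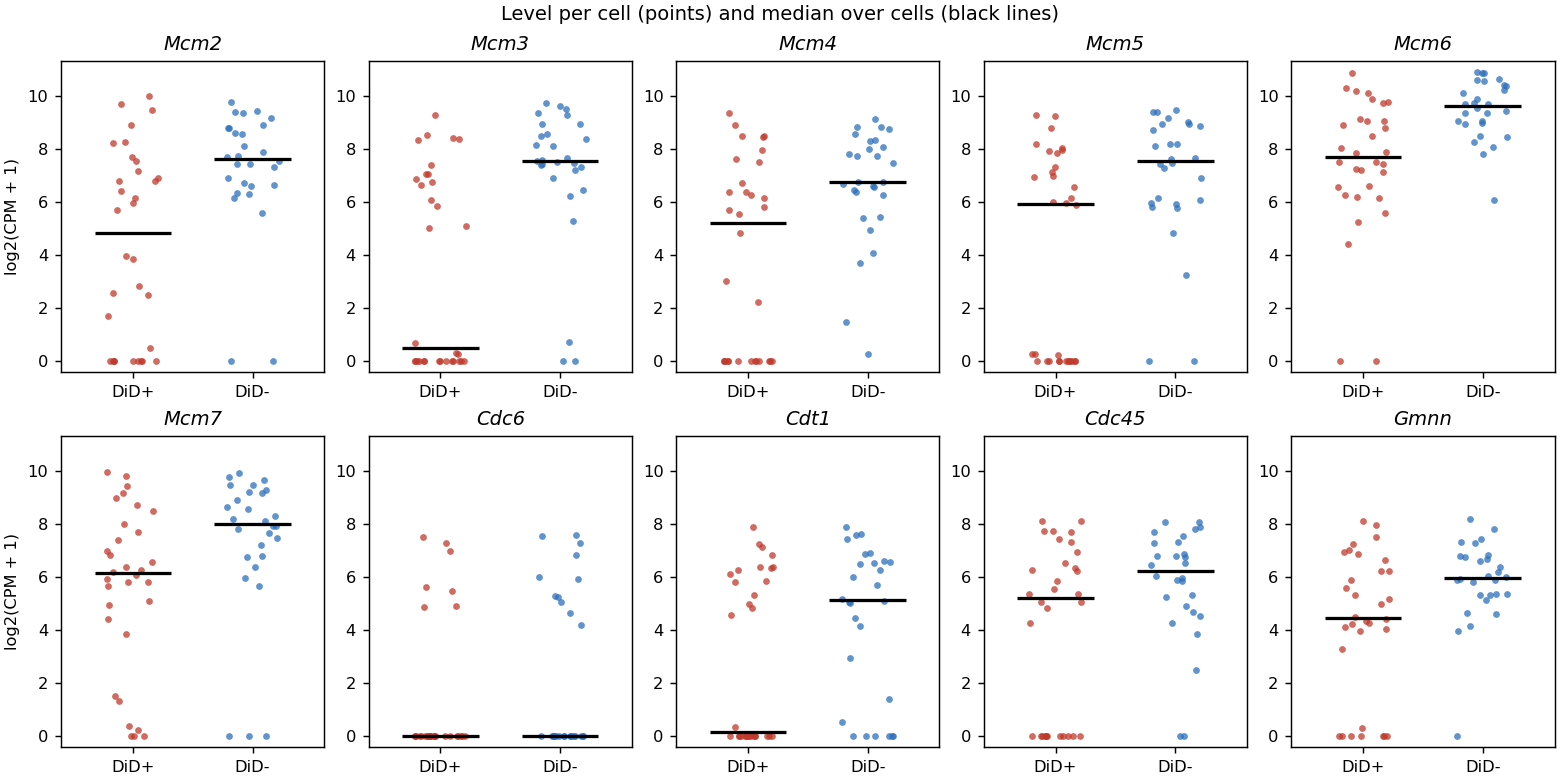
Level of each licensing gene per cell, as log2(CPM + 1), in DiD+ (red, 32 cells) and DiD- (blue, 28 cells), with black lines at the median. The groups overlap for every gene. *Mcm3*, *Mcm4*, *Mcm5*, *Cdc6*, *Cdt1* and *Cdc45* have a cluster of DiD+ cells at 0, and for *Cdc6* many DiD- cells are at 0 as well. *Mcm6* has few cells at 0 but a lower DiD+ median.

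Counted over genes, 4 of the 10 licensing genes (*Mcm3*, *Mcm4*, *Mcm5* and *Cdc45*) were present in a share of cells at least 25 percentage points lower in DiD+, where 3.86% of the 8814 genes were. The 25-point limit was chosen after the values were seen. Thinning each cell to 2200000 counts, below the shallowest cell, left *Mcm3* at 15 and 25 cells. It moved *Mcm2* from 22 to 19 DiD+ cells, and *Mcm2* then also passed the limit, for 5 of the 10 genes.

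Compared per kilobase of the longest coding transcript, *Mcm6* and *Mcm7* were the highest and *Cdt1* and *Cdc6* the lowest genes in both groups. *Mcm6* led with 97.6 CPM per kb in DiD+ and 208 in DiD- cells, followed by *Mcm7* with 67.8 and 121 CPM per kb. *Cdt1* (18.1 and 30.1 CPM per kb) and *Cdc6* (4.89 and 8.07 CPM per kb) stood at the other end. *Mcm3* stood elsewhere in the order of the 2 groups, since it was the third of the 10 genes in DiD- cells with 98.4 CPM per kb and the lowest *Mcm* gene in DiD+ cells with 32.6 CPM per kb, next to *Mcm4* with 32.8. *Gmnn* came right after *Mcm7* in DiD+ cells with 54.6 CPM per kb, above 4 of the *Mcm* genes, and below *Mcm5* in DiD- cells with 73.2 CPM per kb. The 6 ring subunits act in equal numbers, but *Mcm3* made up 15.3% of the summed *Mcm* level per length in DiD- and 10.3% in DiD+, while *Mcm6* made up 32.2% and 30.8%. *Mcm6* was the highest of the 6 per length in 26 of 28 DiD- and 20 of 32 DiD+ cells. Within a group the spread over cells was wider than most of the steps between neighbors in this order. In DiD- cells the middle 50% ran from 45.5 to 132 CPM per kb for *Mcm3* and from 29.3 to 130 CPM per kb for *Mcm2*, the next in the order.

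The question of how many cells were unlicensed was put to each cell by the number of *Mcm* genes present. Of the 32 DiD+ cells, 11 had all 6 genes present (34.4%, 18.6 to 53.2), 2 had 5, 6 had 4, 4 had 3, 8 had 2, 1 had only 1, and no cell had none. Of the 28 DiD- cells, 21 had all 6 (75%, 55.1 to 89.3), 4 had 5, 2 had 4 and 1 had 2. The DiD+ cells thus spread over the whole scale, and most DiD- cells stood at its top. At most 2 of the 6 genes were present in 9 DiD+ cells (28.1%, 13.7 to 46.7) and 1 DiD- cell (3.57%, 0.0904 to 18.3). With the line at 3 genes the numbers were 13 and 1, and with the line at 1 gene they were 1 and 0, so the size of the *Mcm*-poor class depends on where the line is drawn. The number of *Mcm*-poor DiD+ cells was 5 when a single count made a gene present, 12 at 100 counts, and 10 after thinning, while it stayed at 1 DiD- cell under each of these.

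**Figure D3:**
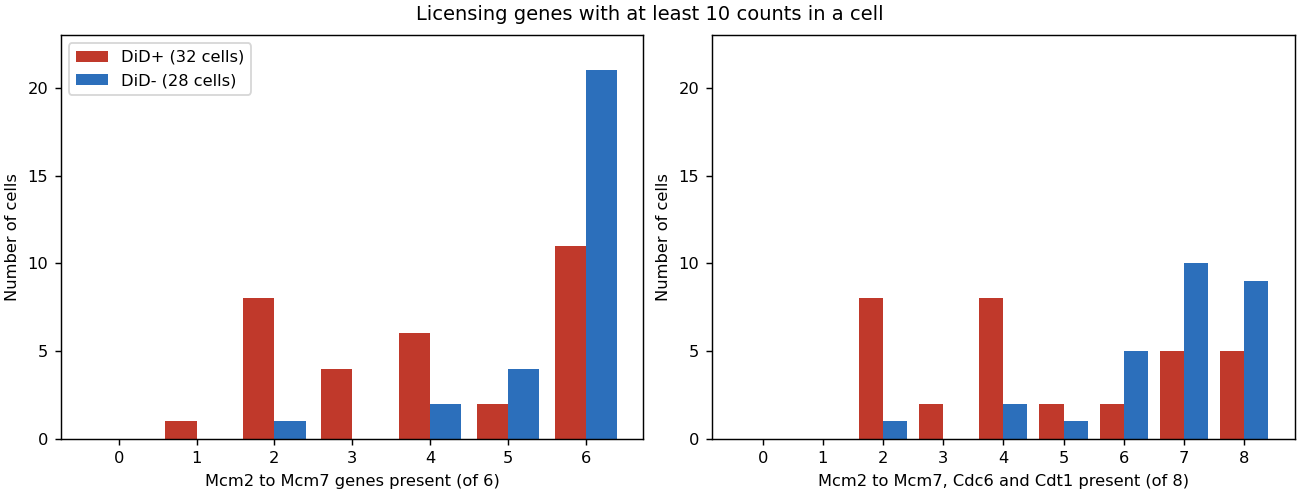
Number of cells (vertical axis) by how many of the 6 *Mcm* genes (left) or of the 8 loading genes, *Mcm2* to *Mcm7* with *Cdc6* and *Cdt1* (right), had at least 10 counts, in DiD+ (red, 32 cells) and DiD- cells (blue, 28 cells). The bar at 6 *Mcm* genes holds 21 DiD- and 11 DiD+ cells, and the bars at 1 and 2 hold 9 DiD+ cells and 1 DiD- cell.

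The 9 *Mcm*-poor DiD+ cells (17, 22, 29, 38, 41, 43, 68, 75 and 76) kept different genes of the set. *Mcm6*, found in 30 of all 32 DiD+ cells, was present in 8 of them, at 20.3 to 231 CPM, and *Mcm2*, *Mcm4* and *Mcm7* in 3 each. *Mcm3*, *Mcm5* and *Cdc6* were present in none. *Gmnn* was present in 5, *Cdt1* in 2 (cells 29 and 76) and *Cdc45* in 1 (cell 38). Cell 75, the lowest of all with 35.2 CPM over the 6 genes, had 5.0 CPM of *Mcm2* and 30.2 CPM of *Mcm7*, and cell 29 had 70.9 CPM of *Mcm6* beside 68.6 CPM of *Cdt1*. The clamp *Pcna* and the keratin *Krt8* were present in all 9. The proliferation marker *Mki67* was present in 3, *Top2a* in 2 and *Ccnb1* in 3. None of the 9 was a macrophage- or erythroid-marked well. Their depth lay within the range of the group, with 3209508 to 5961682 counts (3 cells above the group's median) and 6024 to 9343 genes (4 above the median). Spike-ins, added in equal amount to each well, took 1.33 to 6.53% of their counts (4 cells above the group's median of 1.88%), and the highest share was in cell 68. Whether a missing gene was not transcribed or was lost before amplification was not tested. The 1 *Mcm*-poor DiD- cell (71) had *Mcm4* at 82.6 and *Mcm6* at 302 CPM, with no *Gmnn*, *Mki67*, *Top2a* or *Ccnb1* present.

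Loading factors were looked at beside the helicase genes of the same cells. Neither *Cdc6* nor *Cdt1* was present in 15 DiD+ cells (46.9%, 29.1 to 65.3) and 7 DiD- cells (25%, 10.7 to 44.9). A cell with at most 2 *Mcm* genes and neither loading factor, the strictest mRNA reading of an unlicensed cell used here, occurred 7 times among the DiD+ (21.9%, 9.28 to 39.97) and once among the DiD- cells. The other 8 DiD+ and 6 DiD- cells without a loading factor had 3 or more *Mcm* genes. Of the 7 DiD+ cells of the strictest class, cell 38 had 2615 CPM summed over 19 G2/M genes. The DiD- median of this sum was 2384 CPM, and the rest of the 7 ran from 0.201 (cell 41) to 278 CPM (cell 22). All 8 loading genes were present in 5 DiD+ cells (15.6%, 5.28 to 32.8; cells 18, 64, 82, 87 and 88) and 9 DiD- cells (32.1%, 15.9 to 52.4), and the intervals overlap widely. Without the macrophage wells, neither loading factor was present in 13 of 26 DiD+ and 7 of 27 DiD- cells, and all 8 loading genes in 4 of 26 and 9 of 27. Each of these 14 cells also had *Cdc45* and *Gmnn*, so that all 10 genes were present in them. Between these ends were cells with a full set of *Mcm* genes and no *Cdc6*, 5 of 32 DiD+ and 12 of 28 DiD- cells. A *Mcm*-complete cell with neither loading factor was found once in DiD+ (cell 31) and 3 times in DiD- (cells 39, 46 and 78).

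*Gmnn* and *Cdt1*, whose proteins alternate through the cycle, were present together in 12 DiD+ and 20 DiD- cells. *Gmnn* without *Cdt1* was seen in 12 DiD+ and 7 DiD- cells. *Cdt1* without *Gmnn* was seen in 3 DiD+ cells (29, 37 and 76) and in 0 of 28 DiD- cells, where the interval reaches 12.3%. Of the 3 cells, cell 37 was a macrophage- and erythroid-marked well, and cell 29 had 1 count of *Gmnn*, under the limit of presence. Neither was present in 5 DiD+ cells and 1 DiD- cell.

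Summed over the 6 *Mcm* genes, the DiD+ cells ran from 35.2 over a median of 361 to 4546 CPM, and the DiD- cells from 269 over 2074 to 5409 CPM. The difference between the medians was larger than that between the group sums, 1134 and 2307 CPM, because a few DiD+ cells held most of the counts. The 6 highest cells held 68.9% of the DiD+ and 49.3% of the DiD- *Mcm* counts, and 4 DiD+ cells made up 50% of the sum where 7 DiD- cells did. The DiD+ group thus had 6 cells above the DiD- median (18, 25, 36, 64, 82 and 87) and 13 cells below the lowest DiD- cell. A level of 500 CPM was reached by 15 of 32 DiD+ and 26 of 28 DiD- cells. The 6 host-marked DiD+ wells lay at 120 to 1275 CPM and the 3 host-marked DiD- wells at 968 to 2363 CPM, inside the range of the other cells, and without host wells 9 of 26 DiD+ and 1 of 25 DiD- cells were *Mcm*-poor.

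The *Mcm* genes went up and down together from cell to cell. Over the 15 pairs of *Mcm* genes, Spearman's rho ran from 0.59 to 0.83 (median 0.66) over the 32 DiD+ cells and from 0.59 to 0.87 (median 0.77) over the 28 DiD- cells. These values are descriptions, since cells of a group share preparation and depth. The *Mcm* sum had a rho of 0.63 and 0.68 with *Cdc6* in DiD+ and DiD- cells, 0.42 and 0.82 with *Cdt1*, 0.51 and 0.43 with *Cdc45*, and 0.70 and 0.61 with *Gmnn*. Its rho with the total counts of a cell was 0.11 and 0.19, and with the number of genes 0.18 and 0.20. The number of *Mcm* genes present had a higher rho with the number of genes detected, 0.29 and 0.52, and one of -0.33 and -0.27 with the share of spike-ins.

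The *Mcm* sum followed other S phase genes in both groups, but its relation to G2/M genes was unlike between them. Over cells, its rho with the sum of 15 other S phase genes was 0.87 in DiD+ and 0.76 in DiD- cells. With the sum of 19 G2/M genes (such as *Top2a*, *Ccnb1* and *Aurkb*) it was 0.55 in DiD+ and -0.18 in DiD- cells, a difference that was not tested. The number of *Mcm* genes present had a rho of 0.66 and 0.25 with the G2/M sum. The signs thus differed for the *Mcm* sum and not for the number of genes present. Split at the DiD- medians (2074 CPM for *Mcm*, 2384 CPM for G2/M), 19 DiD+ cells were low in both, 3 were high in both, 3 were high in *Mcm* alone and 7 in G2/M alone. The DiD- cells numbered 6, 6, 8 and 8 in these classes, where the use of their own medians fixes 14 cells on each side of a line. Some cells of each group were thus low in *Mcm* genes and high in G2/M genes. For instance, DiD+ cells 42, 67, 63 and 81 had 221 to 795 CPM of *Mcm* genes beside 9558 to 15954 CPM of G2/M genes. DiD- cells 27 and 65 had 269 and 512 CPM of *Mcm* genes beside 12696 and 12355 CPM of G2/M genes.

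**Figure D4:**
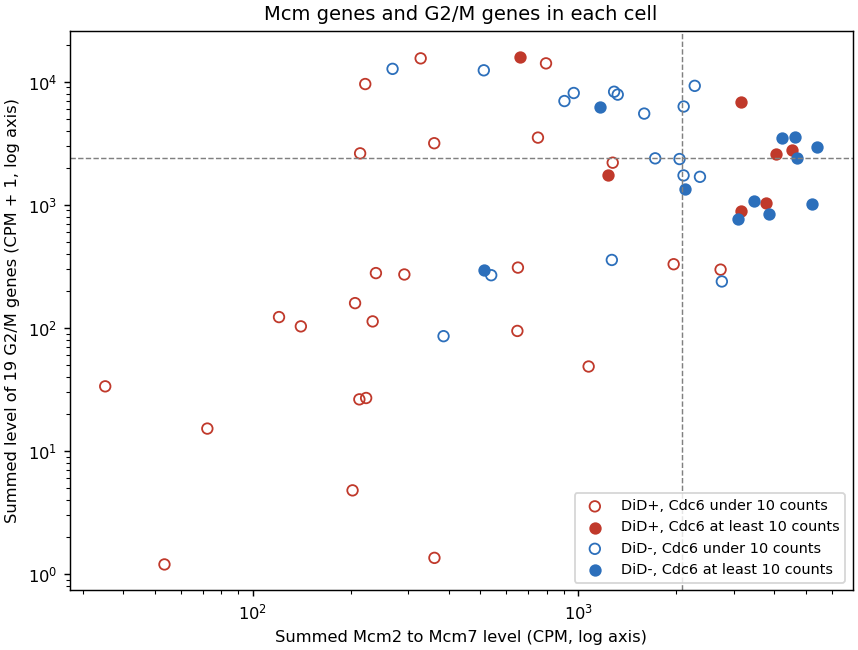
Summed level of *Mcm2* to *Mcm7* (horizontal, CPM, log axis) against the summed level of 19 G2/M genes (vertical, CPM + 1, log axis) in each DiD+ (red) and DiD- (blue) cell, filled where *Cdc6* had at least 10 counts, with dashed lines at the DiD- medians. Of the DiD+ cells, 19 lie at the lower left, and filled points gather at the right, where the *Mcm* sum is high.

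Other genes of the origin cycle, taken from lists of names and counted at 1 CPM or more in either group, differed less evenly. Of all 12432 genes at this level, 46.8% were lower in DiD+ by any amount and 12.1% at least 1.5-fold, with a median log2 ratio of 0.04. The origin recognition complex, which marks origins through the whole cycle, was lower in 5 of 6 genes with a median log2 ratio of -0.32, and only *Orc6* was at least 1.5-fold lower (57.4 against 97.1 CPM). *Orc4* was higher in DiD+ with 67.3 against 34.4 CPM. All 5 genes listed as helpers of loading or relatives of the ring subunits were lower (median -0.41). *Mcm8*, such a relative that acts in repair, had the largest difference with 9.69 against 32.8 CPM (present in 8 and 15 cells). Firing of the loaded ring needs Cdc7, Cdk2 and their regulatory subunits, and of these 6 genes 5 were lower (median -0.61). Among them *Cdc7* was at 8.34 against 29.02 CPM (present in 8 and 16 cells) and *Ccna2* at 166 against 283 CPM (14 and 23 cells). Of the cyclin E genes, *Ccne1* was higher with 26.3 against 17.9 CPM (present in 10 and 8 cells). *Ccne2* was lower with 20.9 against 31.9 CPM. All 13 firing factors were lower (median -0.49), 6 of them at least 1.5-fold. They were led by *Mcm10* (6.43 against 21.5 CPM, present in 6 and 9 cells) and *Ticrr*, the treslin gene (4.79 against 12.3 CPM, present in 4 and 8 cells).

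Of the 7 genes of Cdt1 destruction, 4 were nearly level between the groups. All 7 were lower by some amount, with a median of -0.07. *Dtl*, which targets Cdt1 on DNA-bound Pcna, was at 36.1 against 38.003 CPM. *Skp2*, a second ligase subunit for Cdt1 and for the inhibitor p27, had the largest difference with 21.4 against 41.1 CPM, followed by *Fzr1* (155 against 231 CPM) and *Ddb1* (385 against 492 CPM). Of 12 E2F and pocket protein genes, 8 were lower and 4 higher in DiD+ (median -0.42). The activator *E2f1* was at 37.9 against 80.7 CPM and *Rbl1* (p107) at 11.001 against 34.8 CPM. The repressor *E2f7* was at 8.82 against 25.2 CPM (present in 8 and 16 cells). *Rb1*, the main brake on E2F, was higher with 30.2 against 18.97 CPM, and *E2f2* was at 3.31 against 0.393 CPM, present in 3 and 1 cells.

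The 14 other S phase genes at 1 CPM or more were all lower (46.8% of all genes were), 8 of them at least 1.5-fold (12.1% of all genes), with a median of -0.83 beside the -0.78 of the licensing genes. Among them were *Uhrf1*, a factor of maintenance methylation (48.9 against 125 CPM), and *Rrm1*, a ribonucleotide reductase subunit (207 against 450.02 CPM). *Pcna* was present in every cell of both groups and was at 239 against 311 CPM. Of the 19 G2/M genes 18 were lower, 10 at least 1.5-fold, with a median of -0.59. Of 7 inhibitors of cyclin-dependent kinases, 4 had at least 1 CPM in a group, 2 of them lower and 2 higher, with a median of 0.08. *Cdkn1a*, which encodes p21, was present in every cell and was at 688 CPM in DiD+ against 364 CPM in DiD- cells. All genes in these lists are in the same 60 cells, so the lists do not test one another.

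**Figure D5:**
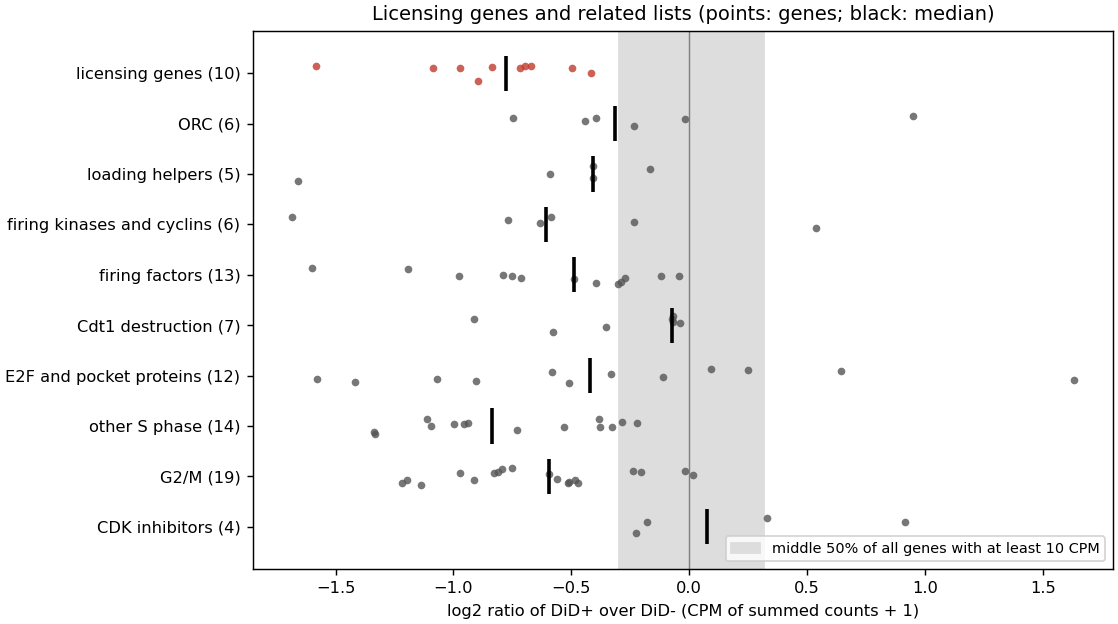
Log2 ratio of DiD+ over DiD- summed levels (horizontal, 1 CPM added) for each of the 10 licensing genes (red) and for the genes of 9 related lists with at least 1 CPM (grey), with black lines at the medians and a band for the middle 50% of 8814 genes. All 10 licensing genes lie left of the band, as do the medians of all related lists but Cdt1 destruction and CDK inhibitors, which lie within it.

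The genes most like the *Mcm* genes were sought among 8801 genes with at least 10 counts in at least 20 cells, by Spearman's rho of their CPM with the *Mcm* sum over all 60 cells. The median rho was 0.04. The 8 highest outside the licensing genes were *Rfc2* (0.85), *Prim1* (0.83), *Dnajc9* (0.81), *Chaf1b* (0.79), *Lig1* (0.79), *Atad2* (0.79), *Cenph* (0.78) and *Pcna* (0.78). *Rfc2*, *Prim1*, *Lig1* and *Pcna* encode a clamp loader subunit, the primase, the DNA ligase of lagging strands and the clamp, and *Chaf1b* and *Dnajc9* encode histone chaperones. Within the groups the rho of these 8 ran from 0.64 to 0.85. The 5 lowest were *Tcp11l2* (-0.68), *Hcfc1r1* (-0.68), *Rnase4* (-0.66), *Map1lc3b* (-0.64) and *Hist2h2aa1* (-0.63), and within the groups their rho ran from -0.81 to -0.43. *Map1lc3b*, an autophagy gene, was at 451 CPM in DiD+ against 289 CPM in DiD- cells, and *Rnase4* was at 231 against 99.99 CPM.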

How the data were processed

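Single PyMT-Bo1 cells (32 DiD+, 28 DiD-) were grouped by the DiD intensity in their labels. Per the study's methods and labels, the authors trimmed adapters, aligned reads with STAR to GRCm38/mm10 supplemented with ERCC spike-ins and transgenes, and summarized genes with RSEM. The authors deposited these estimated counts without normalization for 47729 mouse genes, 92 spike-ins and 4 transgenes, and 96.6% of the values were whole numbers exactly as written. A second deposited table holds BASiCS-normalized signal per gene and cell, and it served only as an alternative. The labels and the paper name different instruments and read lengths. All columns were matched to cells by their labels, and 0 were left unused.

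Estimated counts were rounded. Totals are of mouse genes only. Fold changes are on the log2(CPM + 1) scale, which understates differences of low genes. With 1 sample per group no test was run. Genes overlapping a partner on the other strand are uncertain. The named genes are the 10 licensing genes, genes of the lists beside them, and the 8 highest and 5 lowest by rho. The members and lists were chosen with earlier results of these data known. No cell was left out and doublets were not called, so wells with host markers are in all sums. Alternatives were mean CPM, BASiCS values, spike-in, TMM (edgeR 4.0.16) and DESeq2 (1.42.0) scaling, pseudocounts of 0.1 and 10 CPM, other limits for presence, thinning, leaving out host wells, and leaving out each cell. Gene positions are from GENCODE M21, promoters from RefSeq, and primers from the study's primer table, located on the GENCODE transcript. Python 3.11.15 (numpy 2.4.6, pandas 2.3.3, scipy 1.17.1, matplotlib 3.10.9) and R 4.3.3 were used. The group log2 ratios were tested on simulated Poisson counts, and the intervals and word search on fixed examples. Classes of cells, thinning and rho were not tested on simulated data.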

Additional observations from a re-analysis of the deposited data

How the results depend on the processing

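All 10 licensing genes were lower in DiD+ under each of 9 other scalings, pseudocounts and cell selections (90 of 90 values, from -1.77 to -0.26 on the log2 scale) and whichever cell was left out. The median log2 ratio, -0.78, was -0.88 with BASiCS values, -0.72 with a pseudocount of 10 CPM, -0.75 without macrophage-marked and -0.74 without erythroid-marked wells. With spike-in scaling it was -0.99, where the median of all genes was -0.39, so the genes were -0.59 relative to it. Leaving out 1 cell at a time gave -1.08 to -0.66, and the number of genes at least 1.5-fold lower, 8 with all cells, ran from 5 to 10. Drawn at 1 gene or fewer, the *Mcm*-poor class held 3.13% of DiD+ and 0% of DiD- cells. Without a minimum level, the medians of other S phase genes and CDK inhibitors were -0.73 and 0. No paired analysis was possible because the labels number cells and name no mouse, so no DiD+ cell belongs to a DiD- cell. The differences have no replicate check in these data. Cells near the 10-count limit of presence are decided by depth, and loss of RNA before amplification sets a limit that counting intervals leave out.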
